A study of Mus musculus with 40 samples.

Results

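Kinetochore genes of the mouse mammary gland were followed through SV40-driven carcinogenesis. The set holds 10 genes, chosen by name: Cenpa, Cenph, Cenpi and Cenpk of the inner kinetochore, Cenpe and Cenpf of its outer corona, and Ndc80, Nuf2, Spc24 and Spc25 of the Ndc80 complex. They are 10 of 18193 genes measured, and 18 of 45037 tested probe sets belong to them. Each gene is given by its brightest probe set, and all 10 were above the control level in every invasive tumour.

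The kinetochore is the protein body that joins a chromosome to the spindle in mitosis. It is built at the centromere on nucleosomes that carry Cenpa, a variant of histone H3, and on an inner network that includes Cenph, Cenpi and Cenpk. The Ndc80 complex reaches outward and grips microtubules: Ndc80 and Nuf2 bind the microtubule, and Spc24 and Spc25 anchor the complex to the inner kinetochore. Cenpe is a kinesin that carries chromosomes along microtubules, and Cenpf is a large coiled-coil protein of the corona. Most of these genes are transcribed in dividing cells, with a peak late in the cell cycle, and resting mammary gland holds few such cells. The large T antigen of SV40 binds the retinoblastoma family and p53.

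Breast tissue of 40 mice was measured, 1 array per mouse, in 8 groups of 5. The wild_type group was BalbC and carried no transgene. All other groups were WAP-TNP8 mice, in which the WAP promoter drives the T/t-antigen in mammary epithelial cells once a lactation has switched it on. Their groups were before_activation (no lactation yet), 1M, 2M, 3M, 4M and 5M (1, 2, 3, 4 and 5 months after activation of the SV40 oncogene) and invasive_tumour, taken from mice 4 or 5 months after lactation. Wild_type and before_activation together served as 10 controls, as in the methods of the study, which left 1M out because of lactation. No group was a wild type gland after lactation, so an active transgene and a past lactation cannot be told apart in comparisons with the controls. Age in weeks is not given in the sources used here. Whole tissue was measured, in which more dividing cells and more RNA per cell cannot be told apart.

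Values are log2 of the deposited intensity unless stated otherwise. Differences are on the log2 scale, with standard errors and adjusted p-values from limma, and a gene passed the test at an adjusted p of at most 0.05. Array medians lay between 4.24 and 4.61, and a mean below 5, close to the floor of the scale, was found for 52.2% of the tested probe sets. A fold change against such a level depends on that floor. The spike-in Dap, which reports on labelling, was low on 7 arrays, 4 of 5 at 5M, 2 of 5 in wild_type and 1 of 5 in before_activation. Markers of T cells and B cells were high on 14 arrays, 3 of 10 in the controls, 2 at 1M, 4 at 2M, 2 at 3M, 1 at 4M, 2 at 5M and none of the tumours. The 3′ minus 5′ signal of Gapdh stood at 4.85 on 4M replicate 2, against 1.79 to 3.76 on the other arrays. Markers of mammary epithelium were present in every group, with all 9 genes above a group mean of 5, while the adipocyte markers were high in the controls and low in tumours.

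The promoters of the members were read for motifs that are known from cell cycle genes. RefSeq gave 11 windows of 300 bases (250 before and 50 after the start, GRCm38.p6) for 9 of the 10 members, and Spc24 had no window in the table used. The CHR motif TTTGAA, searched on both strands, was found in 4 of the 11 windows, against 17.9% of all 32851 windows. CCAAT was found in 9 of the 11, which belong to 7 members since Cenpk has 3 windows, against 37.4% of all windows. Both motifs lay in 3 of the 11, against 6.95%. None of the E2F words TTTCCCGC, TTTCGCGC, TTTGCCGC and TTTGGCGC was found in a member's window, and 2.26% of all windows hold 1 or more of them. The 4 members with a CHR motif are shown, 5′ to 3′, with CHR and CCAAT matches on either strand in capitals.
Cenpa, chr5:30666636-30666935, plus strand: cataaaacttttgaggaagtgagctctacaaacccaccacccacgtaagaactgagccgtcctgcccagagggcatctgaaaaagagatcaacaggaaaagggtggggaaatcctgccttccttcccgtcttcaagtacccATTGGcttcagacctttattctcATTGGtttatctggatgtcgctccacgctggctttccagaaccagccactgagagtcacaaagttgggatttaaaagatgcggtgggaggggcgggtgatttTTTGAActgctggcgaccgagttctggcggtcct
Cenpf, chr1:189688037-189688336, minus strand: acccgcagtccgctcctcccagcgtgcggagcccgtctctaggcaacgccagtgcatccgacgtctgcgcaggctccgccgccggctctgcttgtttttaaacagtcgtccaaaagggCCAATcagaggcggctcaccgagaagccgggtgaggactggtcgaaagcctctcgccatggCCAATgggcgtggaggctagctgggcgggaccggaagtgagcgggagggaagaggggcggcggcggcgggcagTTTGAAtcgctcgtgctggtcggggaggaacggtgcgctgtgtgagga
Spc25, chr2:69206164-69206463, minus strand: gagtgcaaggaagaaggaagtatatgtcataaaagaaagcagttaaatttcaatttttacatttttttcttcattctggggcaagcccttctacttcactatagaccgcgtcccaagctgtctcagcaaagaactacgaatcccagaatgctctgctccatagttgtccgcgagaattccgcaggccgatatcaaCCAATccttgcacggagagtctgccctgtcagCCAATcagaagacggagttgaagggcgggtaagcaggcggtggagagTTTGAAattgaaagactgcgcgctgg
Ndc80, chr17:71526808-71527107, minus strand: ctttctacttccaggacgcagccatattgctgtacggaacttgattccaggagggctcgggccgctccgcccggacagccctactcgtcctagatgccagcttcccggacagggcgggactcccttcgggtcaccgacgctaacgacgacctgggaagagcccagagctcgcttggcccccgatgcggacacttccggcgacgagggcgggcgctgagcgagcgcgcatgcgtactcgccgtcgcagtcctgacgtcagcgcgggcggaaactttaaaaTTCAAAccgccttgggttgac
Counted with 1 as the first base after the start, the CHR match lay at position 17 in Cenpa, 3 in Cenpf and 25 in Spc25. Each of these held 2 CCAAT matches before the start, at -109 and -86 on the opposite strand in Cenpa, at -132 and -71 in Cenpf and at -55 and -23 in Spc25. Ndc80 held a CHR match on the opposite strand at position 30 and no CCAAT. Cenpe, Cenph, Cenpi and Cenpk held CCAAT only, and the Nuf2 window held none of the motifs. A match is a run of letters and not a shown binding site, and these windows were not tested for activity.

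Invasive tumours had the highest mean of all 8 groups for each of the 10 members. All 10 passed the test against the controls and were higher, none was lower, and 18.8% of all tested probe sets were higher in that comparison. The median difference of the members was 5.39, against -0.01 over all genes. At the thresholds of the study's methods, an adjusted p of at most 0.01 and at least 5-fold, 10 of 10 members passed, against 2.83% of probe sets. For all 10 members the lowest tumour array lay above the highest control array. How many of all probe sets were apart in this way was not counted.

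**Figure D1:**
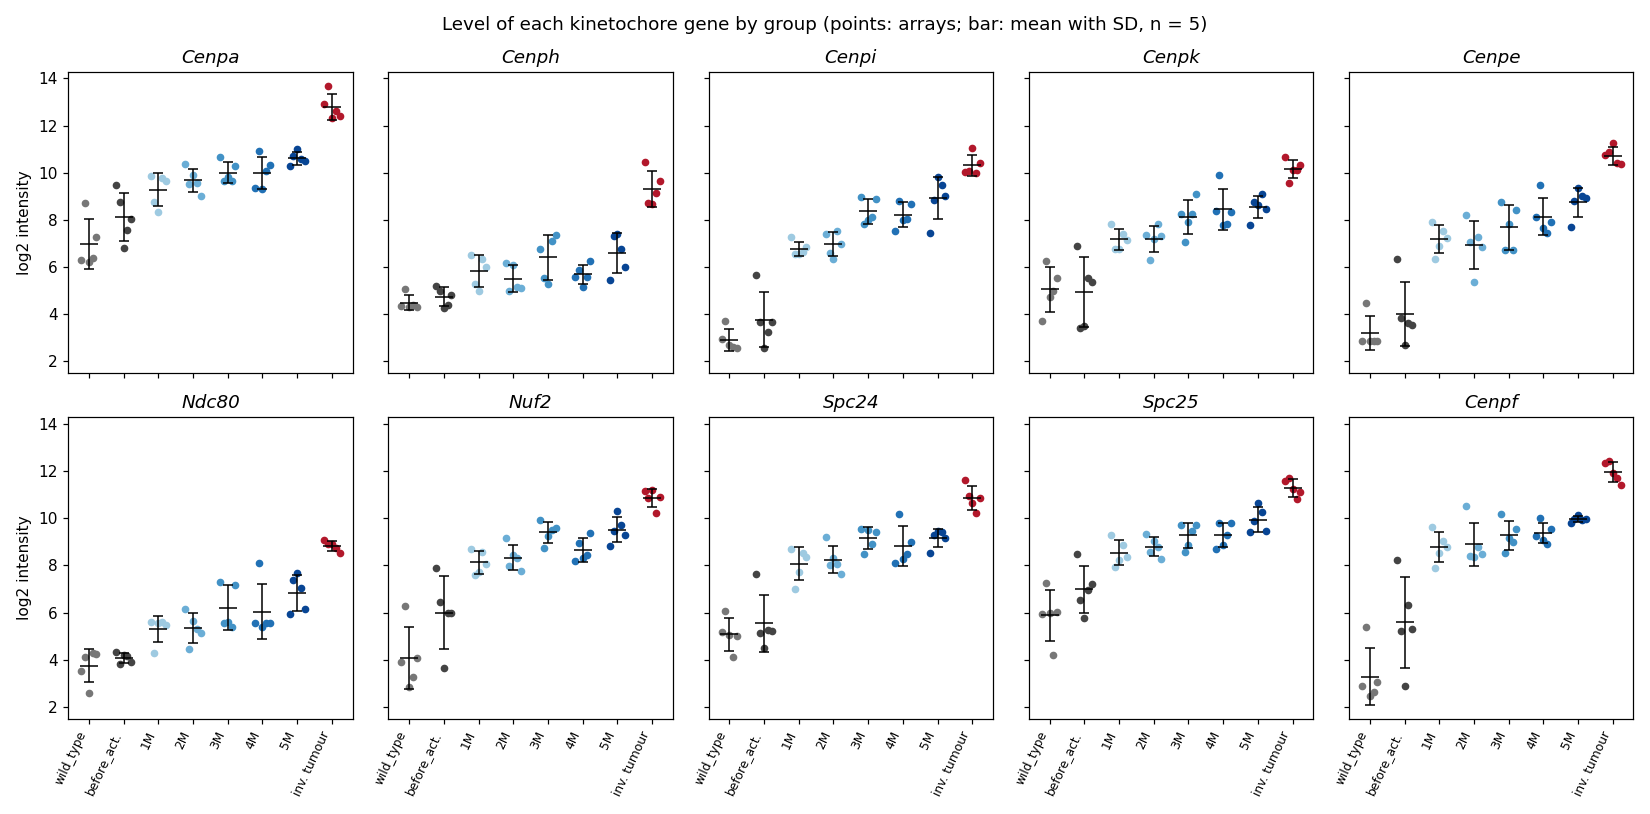
Log2 intensity (y axis) of each kinetochore gene in the 8 groups (x axis), with 1 point per array and the mean with its SD (n = 5). Control points spread widely for Cenpf, Nuf2 and Cenpk, and the tumour points lie above all control points in every panel.

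Among inner kinetochore genes, Cenpa, the centromeric histone, stood at 12.91, 13.70, 12.33, 12.60 and 12.41 in the tumours, against 6.22 to 9.48 (median 7.44) in the 10 controls. The lowest tumour was 1.32 above the highest array of any other group, 5M replicate 3. The tumours were higher by 5.23 ± 0.54 (adjusted p = 3.05e-06), or 37.6-fold. Cenph stood at 10.47, 8.70, 8.66, 9.13 and 9.66 in the tumours and at 4.28 to 5.21 (median 4.39) in the controls. Here the controls were close together and near the floor, and tumour replicate 1 was the highest array. Cenph was higher by 4.71 ± 0.28 (adjusted p = 2.04e-08). Cenpi had 10.03, 10.07, 11.04, 10.01 and 10.41 in the tumours, against 2.57 to 5.68 (median 3.10) in the controls, a difference of 6.97 ± 0.44 (adjusted p = 3.94e-08). This was the largest tumour difference among the inner kinetochore members, and 1 control array, before_activation replicate 1, was above 5. Cenpk was at 10.67, 9.58, 10.11, 10.11 and 10.35 in the tumours and at 3.41 to 6.90 (median 5.18) in the controls, higher by 5.17 ± 0.53 (adjusted p = 3.21e-06). Cenpk was 1 of the 2 members whose tumour range met that of the glands, since 4M replicate 2 reached 9.89.

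By their brightest probe sets, the corona genes had the largest tumour differences, though that of Cenpe lay within 1 standard error of that of Cenpi. Cenpe stood at 10.76, 10.88, 11.28, 10.40 and 10.36 in the tumours, against 2.69 to 6.33 (median 3.22) in the controls, a difference of 7.14 ± 0.50 (adjusted p = 1.08e-07). For Cenpf the tumours had 12.36, 12.43, 11.91, 11.71 and 11.39, and the controls 2.47 to 8.21 (median 4.12). The Cenpf controls were the widest of all members, with an SD of 1.95 over the 10 arrays, and the difference of 7.52 ± 0.87 (adjusted p = 9.45e-06) had the largest standard error. With the mean of a gene's probe sets in place of the brightest one, Cenpf differed by 3.51. Both genes are needed for chromosomes to move to the middle of the spindle.

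Within the Ndc80 complex, Ndc80 itself was the tightest. Its tumours stood at 9.08, 8.91, 8.89, 8.72 and 8.51 and its controls at 2.60 to 4.33 (median 4.14), a difference of 4.91 ± 0.24 (adjusted p = 4.16e-09). Its partner Nuf2 had 11.15, 10.86, 11.19, 10.22 and 10.91 in the tumours, against 2.84 to 7.90 (median 5.01) in the controls. Nuf2 was higher by 5.84 ± 0.75 (adjusted p = 2.62e-05), and it was the other member whose tumours met the glands, with 10.30 on 5M replicate 3. The controls of the anchoring subunits spread less than those of Nuf2. Spc24 stood at 11.63, 10.95, 10.63, 10.23 and 10.86 in the tumours and at 4.10 to 7.64 (median 5.15) in the controls, higher by 5.55 ± 0.45 (adjusted p = 3.58e-07). Spc25 had 11.60, 11.71, 11.23, 10.80 and 11.11 in the tumours, against 4.21 to 8.48 (median 6.27) in the controls, and was higher by 4.86 ± 0.51 (adjusted p = 4.27e-06). The tumour differences of the 4 subunits lay between 4.86 and 5.84.

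Glands after activation were already higher than the controls. At 2M and 3M together, the times the study took as early, 10 of 10 members were higher and 5.36% of probe sets were. The members' median difference was 3.03, against 0.00 over all genes, and each member was above the control mean on 10 of 10 arrays. With limma, Cenpf differed by 4.65 ± 0.64 (adjusted p = 0.000128) and Cenpi by 4.33 ± 0.40 (adjusted p = 2.25e-06). Smaller differences were found for Nuf2 (3.84 ± 0.57), Cenpe (3.73 ± 0.46) and Spc24 (3.39 ± 0.37), and then for Cenpk (2.67 ± 0.44), Spc25 (2.60 ± 0.38) and Cenpa (2.29 ± 0.39). Ndc80 (1.85 ± 0.32) and Cenph (1.35 ± 0.29, adjusted p = 0.00456) had the smallest. At the methods' thresholds 7 of 10 members passed, against 0.528% of probe sets. The others, Cenpa, Cenph and Ndc80, had 4.88, 2.55 and 3.61-fold changes and missed the 5-fold limit.

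The months were then compared with the controls one by one, always with the same 10 control arrays, so the comparisons are not independent. At 1M, 9 of 10 members were higher (2.67% of probe sets), and Cenpa was the exception at 1.72 ± 0.55 (adjusted p = 0.108). At 2M all 10 were higher (1.98% of probe sets), as they were at 3M (3.55%), at 4M (3.5%) and at 5M (6.1%). The number passing in the first months changed when 1 array was left out: 4 members passed at 1M without 1M replicate 1, and 4 without 1M replicate 4. At 2M, 3 passed without 2M replicate 1, 5 without replicate 2, 4 without replicate 3 and 6 without wild_type replicate 5. The differences stayed above 0 in these fits. With 1 array left out, Cenpi differed by 3.32 to 3.70 at 1M and 3.49 to 3.90 at 2M. Cenph differed by 1.05 to 1.43 at 1M and 0.74 to 1.03 at 2M. Without 4M replicate 2, 9 passed at 4M (Cenpa did not) and the difference of Ndc80 was 1.61, against 2.13 with it. The methods' t-test, adjusted over all probe sets, passed at 0.05 for 7 members at 1M, 8 at 2M, 8 at 3M, 9 at 4M and 9 at 5M. The shares of all probe sets that passed that test in these months are not given here, and the shares above belong to limma. At 5M, 9 of 10 members passed the methods' thresholds in limma, against 0.824% of probe sets, and only Cenph, at 3.94-fold, did not. Median differences of the members were 2.47 at 1M, 2.65 at 2M, 3.49 at 3M, 3.48 at 4M and 3.70 at 5M. Array ranges were apart from those of the controls for 2 members at 1M, 4 at 2M, 10 at 3M, 8 at 4M and 10 at 5M. Ranges were compared for members only, so the share of all probe sets with ranges apart is not known.

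**Figure D2:**
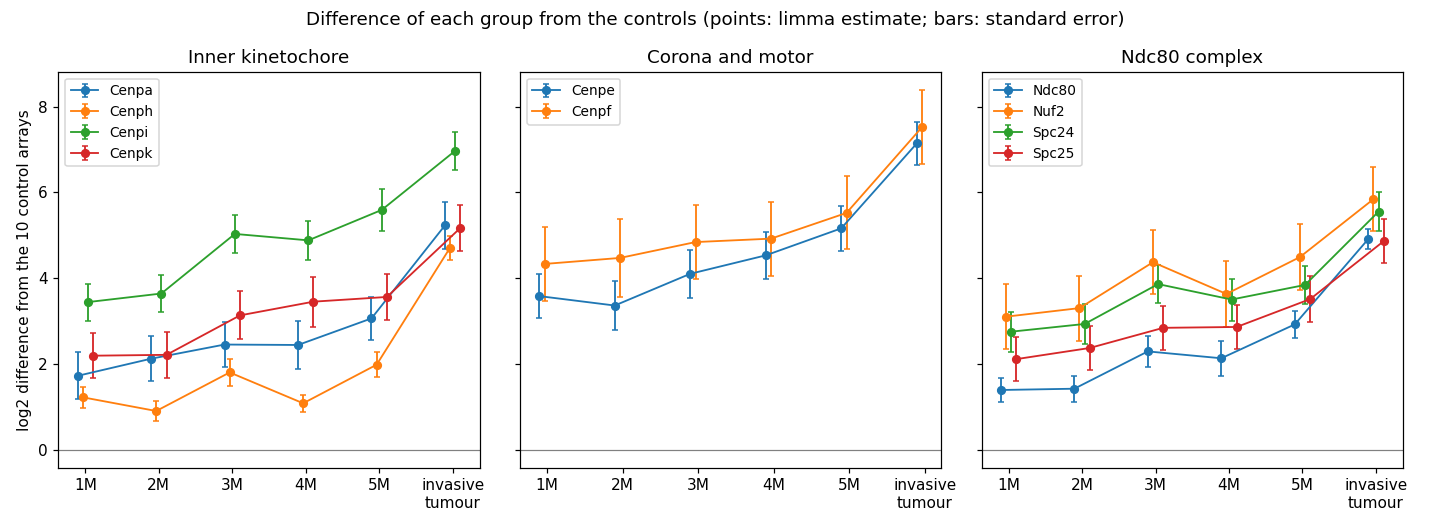
Difference from the 10 control arrays on the log2 scale (y axis) for each group after activation (x axis), with the standard error as bars and the members in 3 panels by place in the kinetochore. Cenph and Ndc80 lie lowest at 1M and 2M, and every member is highest in invasive_tumour; lines join group estimates of different mice.

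Set against the tumour, the members had moved unequally by then. The mean of the 10 members had covered 44.6% of its tumour difference at 1M, 46.1% at 2M, 59.9% at 3M, 57.7% at 4M and 68.4% at 5M. Cenpi stood at 52.1% at 2M and 80.2% at 5M, and Nuf2 at 56.6% and 76.9%. Cenph had covered only 19.2% at 2M and 41.9% at 5M, and Ndc80 28.9% and 59.4%. Cenph stood at 6.17, 5.00, 6.10, 5.17 and 5.13 at 2M, and 3 of these 5 arrays lay inside the control range of 4.28 to 5.21. Ndc80 stood at 6.15, 4.45, 5.63, 5.30 and 5.12 at 2M, all above the control maximum of 4.33. The order of these shares was not tested. Control means below 5, near the floor, touch the shares of Cenpi (3.34), Ndc80 (3.91) and Cenph (4.61). At 2M the means of Ndc80 (5.33) and Cenph (5.51) were still little above 5, and that of Cenpi was 6.97. The part of the floor in these shares was not tested.

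Within the series of months, neither test of a change passed for a member. The comparison of 2M with 1M found 0 of 10 members higher or lower in limma, and 0.109% of probe sets higher. At an unadjusted p of 0.05, 0 of 10 members and 12.2% of probe sets passed in either direction. Differences between 2M and 1M ran between -0.31 for Cenph and 0.41 for Cenpa, with standard errors of 0.25 to 0.50, so changes of that size could not be told from 0. Arrays were also split by their lymphoid markers, at a mean between 4.43 and 5.97, and no member passed on either side. Among arrays with high markers (4 at 2M, 2 at 1M) the median difference was -0.48 with 0 of 10 above 0. Among arrays with low markers it was 1.25 with 10 of 10 above 0, but there 2M was a single array, replicate 1, the highest of its group for 8 members. Over the 20 arrays between 2M and 5M, a slope per month passed for 0 of 10 members, and 0.0577% of probe sets were higher. At an unadjusted p of 0.05, 8 of 10 members and 11.5% of probe sets passed in either direction. All 10 slopes were positive, and the steepest were Cenpe (0.58 ± 0.16 per month, adjusted p = 0.137) and Cenpi (0.57 ± 0.13, adjusted p = 0.091). Dap was low on 4 of the 5 arrays at 5M and on no array of 2M, 3M or 4M. With the Dap class as a term the median slope was 0.23 per month in place of 0.33, with adjusted p of 0.843 or more.

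Groups were ordered by the mean of each member, and neighbours in that order mostly overlapped. For Cenpf the means ran 3.28 in wild_type, 5.59 in before_activation, 8.77 at 1M, 8.90 at 2M, 9.28 at 3M, 9.36 at 4M, 9.96 at 5M and 11.96 in invasive_tumour, and only the last step had ranges apart. Cenpa, Cenpe, Cenph, Ndc80 and Spc25 likewise had the step up to invasive_tumour as the only gap, and Spc24 had it between 3M, its highest gland group, and invasive_tumour. Spc24 on 4M replicate 2 (10.18) lay just below the lowest tumour (10.23). Cenpi had further gaps between before_activation and 1M and between its neighbours 2M and 4M, at 7.54 and 7.55. Its 5M replicate 1, at 7.45, lay inside the 2M range. For Cenpk, the neighbours wild_type and 1M were apart, but before_activation replicate 1 (6.90) lay above the lowest 1M array (6.77). Its 5M and tumour ranges were apart as well, but 4M replicate 2 (9.89) lay above the lowest tumour (9.58). Nuf2 had no gap at all. Gaps were read for members only, so the share of all probe sets with such gaps is not known.

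Tumours were also set against the late glands, the 10 arrays of 4M and 5M. All 10 members were higher in tumours, against 14.4% of probe sets, with a median difference of 2.08, against -0.01 over all genes. Cenph differed most, with 8.66 to 10.47 in the tumours, against 5.15 to 7.41 in the late glands (3.19 ± 0.41, adjusted p = 6.33e-05). Cenpa was higher by 2.48 ± 0.31 (adjusted p = 4.49e-05) and Ndc80 by 2.39 ± 0.45 (adjusted p = 0.00129). Next came Cenpf (2.30 ± 0.23, adjusted p = 8.13e-06) and Cenpe (2.29 ± 0.35). The smallest differences were those of Spc24 (1.87 ± 0.32), Nuf2 (1.78 ± 0.32), Cenpi (1.74 ± 0.37), Cenpk (1.67 ± 0.31) and Spc25 (1.67 ± 0.29). Cenpa, Cenph and Ndc80 passed the methods' thresholds here, 3 of 10 members, against 1.03% of probe sets. Without 4M replicate 2, the array with the high 3′ signal, 5 of 10 passed those thresholds and 10 of 10 remained higher at 0.05.

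Before activation, no member passed the test against wild type. In limma 0 of 10 members passed for before_activation against wild_type, and 0% of probe sets were higher. At an unadjusted p of 0.05, 1 of 10 members and 34.4% of probe sets passed in either direction. The means were nonetheless higher before activation for 9 of 10 members, by up to 2.31 ± 0.97 for Cenpf (adjusted p = 0.132) and 1.91 ± 0.86 for Nuf2 (adjusted p = 0.153). Cenpf stood at 8.21, 5.20, 2.89, 6.34 and 5.32 before activation, against 2.87, 5.40, 2.47, 2.62 and 3.04 in wild_type. Before_activation replicate 1 was the highest of the 10 controls for 10 of 10 members, and its mean of 7.02 over the members was above that of the lowest 1M array (6.85). Its cell cycle markers averaged 9.63, also the highest of the controls. With all 8 groups in 1 fit, 2 of 10 members were higher before activation (lowest adjusted p = 0.0212 in limma). The share of 0% above belongs to the fit of before_activation and wild_type alone, and that of the larger fit is not given here.

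Replacing the 10 controls with before_activation alone lowered the counts most at the early months, and also left only 5 control arrays. The number of controls and their choice were not tested apart. With before_activation alone as controls, 1 of 10 members was higher at 1M, 0 at 2M, 5 at 3M and 3 at 4M, against 10 at 5M and 10 in invasive_tumour. All 10 differences stayed above 0 at each of these times, with a median of 2.19 at 1M and 2.30 at 2M. With all 10 controls the medians were 2.47 at 1M and 2.65 at 2M. The shares of all probe sets that passed with 5 controls are not given here. At 2M the adjusted p from limma then lay between 0.0563 and 0.302. For 2M and 3M together 9 of 10 were higher with these controls, and Cenph was the exception (adjusted p = 0.0866). With wild_type alone as controls, also 5 arrays, the medians were 2.82 at 1M and 3.04 at 2M. Adjusted p from limma then lay between 0.000154 and 0.0523 at 1M and between 0.000536 and 0.0617 at 2M.

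Lymphoid markers varied within the groups. In the 3 controls with high lymphoid markers the mean of the members was 5.18 to 5.73, and in the other 7 it was 3.97 to 7.02. Wild_type replicate 2, the lone wild type array with high markers (8.45), was the highest wild type array for 9 of 10 members. After activation the order differed between groups. The members' means on high-marker arrays were 7.83 to 8.12 at 1M and 9.20 (1 array) at 4M, above those on low-marker arrays, 6.85 to 7.59 at 1M and 7.79 to 8.48 at 4M. The high-marker array at 4M was replicate 2, with lymphoid markers of 6.21 and the high 3′ minus 5′ signal of Gapdh (4.85). High-marker arrays were lower at 2M, with 7.20 to 7.66, against 8.38 on the 1 low-marker array, and at 5M, with 8.12 to 8.69, against 9.04 to 9.44. At 3M the arrays overlapped, with 7.67 to 8.95 on high-marker and 8.12 to 9.01 on low-marker arrays. 5M replicate 1, with the highest lymphoid markers of its group (9.07) and the only high Dap, was the lowest array for 10 of 10 members. In the tumours lymphoid markers averaged 3.08 to 3.88, and without the control arrays of high markers the median tumour difference was 5.63, against 5.39 with them. The part of lymphoid tissue in the early differences was not tested.

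**Figure D3:**
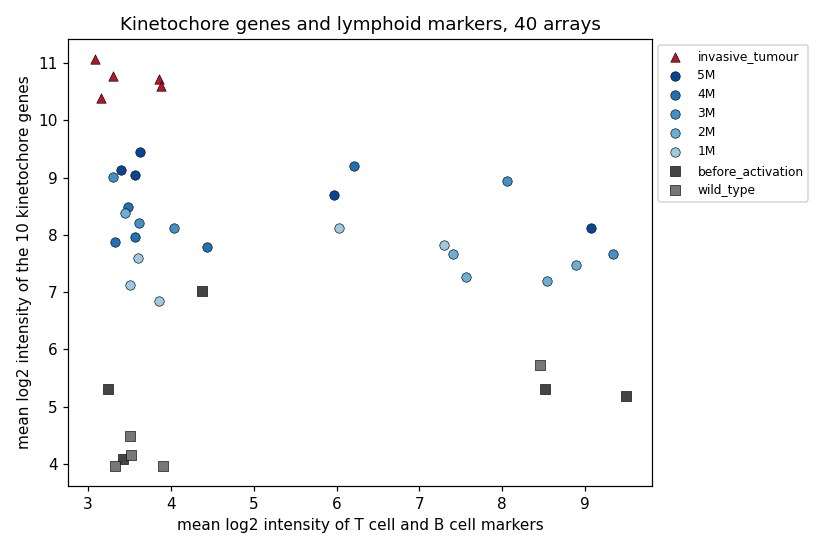
Mean log2 intensity of the 10 kinetochore genes (y axis) against that of the T cell and B cell markers (x axis) on the 40 arrays, coloured by group, with squares for controls and triangles for tumours. Tumours lie top left with lymphoid means of 3.08 to 3.88, and 14 arrays of other groups lie right of the gap between 4.43 and 5.97, at 1M to 5M and among the controls.

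For the early months this split left few arrays. The shares of all probe sets that passed in the fits of this paragraph are not given here. Without the arrays of high lymphoid markers, 0 of 10 members passed at 1M (3 arrays against 7, lowest adjusted p = 0.0703 in limma) and 0 at 2M (1 against 7, lowest adjusted p = 0.0609), with all 10 differences above 0 and medians of 2.23 at 1M and 3.58 at 2M. Among the arrays with high markers alone, 5 of 10 passed at 1M (2 against 3) and 4 at 2M (4 against 3), with medians of 2.50 at 1M and 2.02 at 2M. With the lymphoid class as a term, 9 members passed at 1M and 4 at 2M. For 2M and 3M together, 10 of 10 passed without the arrays of high markers (4 against 7), 3 among them alone (6 against 3) and 10 with the class as a term. At 3M 0 of 10 passed among the arrays with high markers (2 against 3, lowest adjusted p = 0.214 in limma), with a median of 3.00. At 5M, where Dap was mostly low, 10 of 10 passed among the low arrays (4 against 3), with a median of 4.40. Only 1 array at 5M had a high Dap, and 0 of 10 passed there (median 2.95).

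Other cells of the gland changed in the same samples. In invasive_tumour against controls, 7 of 7 adipocyte, 7 of 7 basal and myoepithelial and 6 of 6 endothelial markers were lower, with median differences of -6.77, -3.18 and -3.06. The median over all genes was -0.01, and the share of all probe sets that were lower is not given here. Of the 9 mammary epithelium markers 5 were higher and 1 lower, with a median of 1.42. The means of the adipocyte list were 5.63 to 10.43 in tumours and 13.32 to 14.54 in the controls, and those of the epithelial list 12.28 to 13.31 in tumours and 10.84 to 12.38 in the controls. At 2M and 3M the epithelial median difference was 0.64 and the adipocyte one -0.67, against 3.03 for the kinetochore genes. The part of the change in cell makeup in these differences was not tested.

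Cell cycle markers moved with the members. Of 9 measured, 9 were higher in tumours and 8 at 2M and 3M, with medians of 4.55 and 2.50. The replication genes Pcna (2.22 ± 0.21), Mcm2 (4.08 ± 0.44), Rrm1 (2.97 ± 0.20) and Tyms (4.55 ± 0.19) were examples in tumours. Tyms, the enzyme that makes thymidylate, differed by 0.37 ± 0.14 at 2M and 3M (adjusted p = 0.107). Over the 40 arrays the mean of the members correlated with that of the cell cycle markers at r = 0.99, and at r = 0.88 after each group's mean was removed. All points share their array, so both are descriptions.

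The rest of the kinetochore was read from lists of other subunits, 30 of whose 32 genes were measured. In tumours 26 of 30 were higher and 2 lower, with a median difference of 3.44, and at 2M and 3M 22 were higher and 1 lower, with a median of 1.47. Among 14 other CENP genes, 11 were higher in tumours, such as Cenpp (4.84 ± 0.42, adjusted p = 6.01e-07), Cenpl (3.45 ± 0.17), Cenpt (3.29 ± 0.29) and Cenpc1 (1.69 ± 0.15). Cenpb, which binds a repeat in centromeric DNA, was lower (-1.84 ± 0.24, adjusted p = 3.11e-05) and also at 2M and 3M (-0.71 ± 0.13, adjusted p = 0.00144). Cenpo (-0.14 ± 0.31, adjusted p = 0.894) and Cenpx (-0.51 ± 0.23, adjusted p = 0.11) did not pass. Cenpb, Zwint, Cenpo and Cenpx are named as the exceptions among the 30 genes, after their values were seen.

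**Figure D4:**
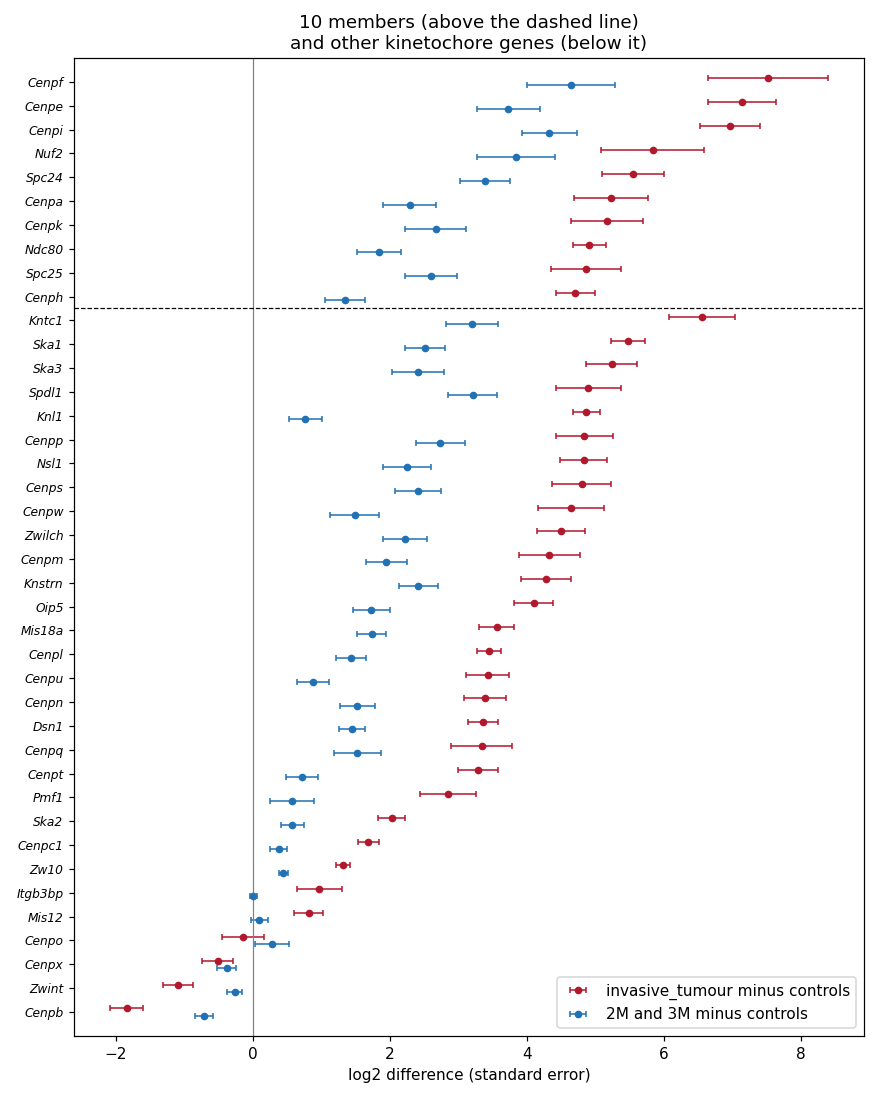
Difference on the log2 scale (x axis, standard error as bars) of invasive_tumour (red) and of 2M and 3M (blue) from the same controls, for the 10 members above the dashed line and 30 other kinetochore genes below it. Most points lie right of 0, and Cenpb, Zwint, Cenpx and Cenpo lie left of it in tumours.

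The Mis12 complex and Knl1 link the Ndc80 complex to the centromere. Of 6 genes, those of the Mis12 complex, Knl1 and Zwint, 5 were higher in tumours and 1 lower. Knl1 (4.87 ± 0.20, adjusted p = 1.08e-09), Nsl1 (4.83 ± 0.34), Dsn1 (3.36 ± 0.22) and Pmf1 (2.85 ± 0.41) were higher. Zwint, a partner of Knl1, was lower (-1.09 ± 0.22, adjusted p = 0.0011). At 2M and 3M Knl1 differed by only 0.77 ± 0.24 (adjusted p = 0.0392), and against late glands the tumours were 3.18 ± 0.44 higher. Of the CENP-A loading factors, Oip5 (4.10 ± 0.29) and Mis18a (3.56 ± 0.25) were higher in tumours. All 8 genes of the Ska and RZZ complexes and the outer kinetochore were higher in tumours and 8 at 2M and 3M, with Kntc1 (6.56 ± 0.48), Ska1 (5.48 ± 0.25), Ska3 (5.24 ± 0.37) and Zw10 (1.32 ± 0.10) as examples. Of the chromosomal passenger and shugoshin genes, which correct attachments and protect cohesion, 6 of 6 were higher in tumours (median 6.33) and 6 at 2M and 3M (median 3.76).

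Within the set, pairs of members correlated at r = 0.78 to 0.98 over the 40 arrays (45 pairs, median 0.94). After group means were removed, r was 0.36 to 0.89 (median 0.66). The highest of these was Cenpf with Nuf2 (0.89) and the lowest Cenpe with Cenph (0.36). Ndc80 followed its own partners less closely than they followed each other, with r = 0.38 to Nuf2, 0.53 to Spc24 and 0.39 to Spc25, against 0.77 for Nuf2 with Spc24, 0.83 for Nuf2 with Spc25 and 0.84 for Spc24 with Spc25. The difference between these r was not tested. Ndc80 had the lowest mean level of the 10 members over the 40 arrays (5.79), with a control mean of 3.91, near the floor. On 4M replicate 2 it stood at 8.12, against 5.40 to 5.57 on the other 4M arrays. The part of these levels in its r was not tested. The genes outside the set most like the mean of the members over the 40 arrays were Birc5 (r = 0.99), Sgo2a (0.989), Knstrn (0.988), Sgo1 (0.988) and Cip2a (0.987). Birc5, Sgo1, Sgo2a and Knstrn are themselves genes of centromeres or kinetochores, and with group means removed their r was 0.87 to 0.95.

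Several members have further probe sets, 8 in all. Of these, 7 were higher in tumours and 1 at 2M and 3M. The second Cenpe probe set followed the first, with 7.25 ± 0.42 in tumours and 3.34 ± 0.42 at 2M and 3M. A second Cenpa probe set differed by 3.86 ± 0.32 in tumours and by 0.69 ± 0.27 at 2M and 3M (adjusted p = 0.12), and the last one stayed at the floor, at 1.71 in tumours and 1.68 in the controls. The other probe sets of Cenpf, Cenpk and Spc25 had control means of 1.87 to 3.39 and did not pass at 2M and 3M, with differences of -0.03 to 0.32.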

How the data were processed

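Breast tissue of 40 mice was hybridised to Affymetrix mouse arrays, 1 array per mouse, from 50 ng total RNA per the labels. The authors normalized the arrays with GCRMA in GeneSpring GX and deposited linear intensity values. A deposited value table holds log2 values centred per probe set, and both tables differed by at most 1.04e-06 (log2) once centred. No further normalization was applied, and log2 of the intensity was tested. Of 45101 probe sets, 64 controls were set aside and 45037 were tested: 34945 had 1 gene symbol, 932 several and 9160 none, and 34741 of the first were matched to RefSeq. A gene was read from its brightest probe set with 1 symbol.

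Groups were compared with limma 3.58.1 in R 4.3.3 (moderated, two-sided), over the arrays of each comparison, with Benjamini-Hochberg adjustment over the 45037 probe sets. The threshold was 0.05, and that of the study's methods was 0.01 with at least 5-fold. The methods describe the replicates as different mice. The number of arrays limits the precision. The step was tested on simulated data. The members and the gene lists were chosen with earlier results of these data known. Named were all 10 members with their other probe sets, up to 4 genes of each list with the smallest p in tumours, and the 5 genes most like the mean of the members. Some genes of the lists are not reported here. Dap and lymphoid classes were set at the widest gap between arrays. Alternatives were other normalizations, floors, filters and tests, other controls, array classes, a replicate block and leaving out each array. The Dap class and lymphoid class as terms and the fits within 1 class (low Dap, high lymphoid markers) were chosen after seeing the data.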

Additional observations from a re-analysis of the deposited data

Results flagged for a closer look

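For each member, the 5 arrays of each of the 8 groups were examined for 1 array far from the other 4, and 7 of 80 such sets held one, where chance would give about 4. In wild_type, replicate 2 was far above the others for Cenpe (4.47, others 2.86 to 2.87), Cenpf (5.40, others 2.47 to 3.04) and Cenph (5.06, others 4.30 to 4.40). This array also had the high lymphoid markers (8.45) described above. Cenpf was high on 2M replicate 1 (10.50, others 8.35 to 8.79), the 2M array with low lymphoid markers. Ndc80 was low on 1M replicate 2 (4.30, others 5.49 to 5.58) and high on 4M replicate 2 (8.12, others 5.40 to 5.57), the array with the large 3′ minus 5′ signal. Spc24 was high on before_activation replicate 1 (7.64, others 4.49 to 5.26). The causes were not tested. The difference of tumours and late glands, both of which had been set against the same controls, was itself tested and passed for 10 of 10 members.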

How the results depend on the processing

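Over all alternatives, 2921 of 3150 values of single members kept their side of the threshold, 220 no longer passed and 9 newly passed. The sign differed in 40 of the 3150, none of which passed in either setting: of the 10 differences between 2M and 1M, 8 were above 0 over all arrays, 10 without arrays of high lymphoid markers and 0 among those alone. In the tumour comparisons 10 of 10 members passed under every alternative run. At 1M, where 9 had passed, 4 passed among arrays with a high Dap, 0 without arrays of high lymphoid markers, 1 with before_activation alone as controls and 5 among arrays with high lymphoid markers. At 2M, where 10 had passed, the counts were 4, 0, 0 and 4 in that order, and 4 with the lymphoid class as a term. Among arrays with high lymphoid markers 3 passed for 2M and 3M together, 0 at 3M and 1 at 5M. With before_activation alone as controls 5 passed at 3M and 3 at 4M, and at 5M 0 passed among arrays with a high Dap. Several of these leave 1 to 3 arrays on a side, and the shares of all probe sets that passed under the alternatives are not given here. The slope passed for 1 member among probe sets with a mean of at least 5 and for 1 with all 8 groups in one fit, which gave 2 members for before_activation against wild_type. Leaving out each array gave 4 to 10 members at 1M, 3 to 10 at 2M, 9 to 10 at 4M and 0 to 1 for the slope. The methods' t-test was not run for the slope, and the Dap classes could not be split for 2M against 1M, where all arrays were high. The causes were not tested.

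Replicate numbers did not pair the mice: deviations from the group means correlated at a median of 0.083 (lowest -0.453) over 140 pairs of arrays with the same number and of -0.016 (lowest -0.609) over 560 others. With the replicate number as a block, 6 members passed at 1M and 8 at 2M, and the other counts did not change. Levels below 5, which held 52.2% of probe sets, limit the folds of Cenpe, Cenpf, Cenph, Cenpi, Cenpk and Ndc80.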

Other observations

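Milk protein genes were higher after activation while the kinetochore genes were, but followed another course. All 5 were higher in tumours (median difference 3.99) and at 2M and 3M (5.31), with list means of 9.64 to 12.61 in tumours and 11.84 to 13.36 at 2M, against 4.65 to 8.06 in the controls. Of 6 fibroblast markers, 4 were lower in tumours (median -1.67), and the median at 2M and 3M was -0.22. The share of all probe sets lower in tumours is not given here.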
